A study of Mus musculus with 108 samples.

Results

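Gene expression at night was set against gene expression by day in the livers of male Errg-Cre mice of strain 129S1/SvImJ (129), an inbred strain, fed the high fat and sucrose diet D12492i (HFD). The 12 libraries were chosen by genotype and time alone, out of 108 in the series. The night group held the 6 libraries of zeitgeber times ZT18 and ZT22 and the day group the 6 libraries of ZT6 and ZT10, with 3 replicates at each time, where zeitgeber time counts hours from lights on. The study design names mice lacking Esrrg, an orphan nuclear receptor (ERR gamma), in hepatocytes, and the libraries carry the genotype Errg-Cre. The labels do not name the promoter that drives Cre, and the GFP control libraries were not used here. A wild-type set of the same strain, sex, diet and times, also 12 libraries in 6 against 6, served for comparison in a table that the authors normalised separately. Whether each replicate is its own animal is not in the labels. The p-values therefore rest on library-to-library spread, part of which may be technical.

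The liver clock is a feedback loop of transcription. CLOCK and its partner BMAL1, the product of Arntl, bind E-boxes and switch on the Per, Cry and Nr1d genes, whose products then repress the activators. In mouse liver the loop, together with nocturnal feeding, sets daily changes in lipid, glucose and bile acid genes and in the chaperones of the secretory pathway.

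The promoters of a few clock genes are shown because these genes mark the phase of a library and carry the letters through which the loop is known to act. They come from the RefSeq promoter table for build GRCm38.p6, 5′ to 3′, with capitals marking matches on either strand to 3 motifs: the E-box CACGTG, the D-box TTANGTAA, which DBP and NFIL3 read, and the element AGGTCA, which ROR and REV-ERB receptors read. Among 32851 promoters listed there, 7.15% hold the E-box, 2.32% the D-box and 16.3% the ROR element.
Arntl, chr7:113207261-113207560, plus strand: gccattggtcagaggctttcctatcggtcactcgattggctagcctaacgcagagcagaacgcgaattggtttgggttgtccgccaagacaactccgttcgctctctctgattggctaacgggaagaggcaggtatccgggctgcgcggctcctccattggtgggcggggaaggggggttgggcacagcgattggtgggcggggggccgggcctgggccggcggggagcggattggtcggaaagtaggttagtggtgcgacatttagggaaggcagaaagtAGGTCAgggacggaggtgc
Cry1, chr10:85185005-85185304, minus strand: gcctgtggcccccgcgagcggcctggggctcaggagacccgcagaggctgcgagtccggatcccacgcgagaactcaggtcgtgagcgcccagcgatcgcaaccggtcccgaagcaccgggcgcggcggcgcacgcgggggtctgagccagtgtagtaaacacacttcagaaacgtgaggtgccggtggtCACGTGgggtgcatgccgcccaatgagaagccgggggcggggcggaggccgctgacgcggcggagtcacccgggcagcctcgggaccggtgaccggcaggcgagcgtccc
Ciart, chr3:95882179-95882478, minus strand: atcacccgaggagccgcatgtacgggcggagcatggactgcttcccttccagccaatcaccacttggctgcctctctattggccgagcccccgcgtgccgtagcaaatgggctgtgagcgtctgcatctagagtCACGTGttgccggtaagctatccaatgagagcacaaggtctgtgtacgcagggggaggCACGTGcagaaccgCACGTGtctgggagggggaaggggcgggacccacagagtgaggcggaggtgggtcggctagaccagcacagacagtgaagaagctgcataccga
Per3, chr4:151044616-151044915, minus strand: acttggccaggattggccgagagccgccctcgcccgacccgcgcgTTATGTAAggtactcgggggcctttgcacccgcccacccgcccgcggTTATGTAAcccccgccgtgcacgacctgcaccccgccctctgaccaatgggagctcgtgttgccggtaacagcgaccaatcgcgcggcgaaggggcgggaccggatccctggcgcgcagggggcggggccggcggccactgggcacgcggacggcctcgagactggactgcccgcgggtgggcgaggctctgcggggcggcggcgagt
Nr1d2, chr14:18239057-18239356, minus strand: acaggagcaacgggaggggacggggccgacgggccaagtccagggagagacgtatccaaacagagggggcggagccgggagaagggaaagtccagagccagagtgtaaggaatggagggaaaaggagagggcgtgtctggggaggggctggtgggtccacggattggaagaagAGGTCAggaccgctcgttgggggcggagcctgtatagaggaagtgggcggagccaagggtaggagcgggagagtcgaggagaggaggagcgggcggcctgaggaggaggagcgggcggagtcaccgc
A match is a description of these letters and not a binding site. The table gives Arntl a second start 46 bases upstream, whose window holds none of the 3 motifs. Of 23 clock genes 17 had a window in the table, and those of Dbp, Nr1d1, Clock and Npas2 were among 8 that held none of the 3 motifs.

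The deposited values are quantile-normalised signal per RefSeq transcript, in build mm10 coordinates. All libraries of a table share the same sorted values, so sequencing depth is unknown and a general rise or fall of transcript levels would not show. Differences are given as night minus day on the log2(signal + 1) scale with the standard error (SE) and the adjusted p of limma, a linear model fitted over all 11621 genes tested with Benjamini-Hochberg adjustment. A gene was called where the adjusted p was under 0.05. In bulk liver, fewer cells of a type and less RNA per cell cannot be told apart.

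Some libraries went against their labelled time. ZT6 replicate 3 and ZT10 replicate 3 had Arntl at 260 and 206, where the other 4 day libraries had 23.7, 14.5, 13.6 and 15.4. Dbp stood at 28.2 and 39.3 in the same pair, against 407, 531, 395 and 475 in the others. By the mean distance over the 23 clock genes tested, ZT6 replicate 3 lay nearest to the ZT2 libraries (0.606 log2, against 1.758 to its own time) and ZT10 replicate 3 nearest to those of ZT14 (0.626 against 1.089). Of the 12 libraries 5 lay nearest to their own labelled time. Among those kept throughout, ZT6 replicate 2 lay 0.646 from the ZT10 libraries and 1.136 from its own time, a gap as wide as that of ZT10 replicate 3, where the mates of its own time include ZT6 replicate 3. The other 4 lay nearer to another time by less, at most 0.439 against 0.509 for ZT22 replicate 3. Each comparison was therefore repeated on 10 libraries without this pair. The pair was picked by Arntl and Dbp, so clock gene differences in the repeat are a description, given without a test. Other genes that vary with the clock gain contrast through the same choice. Their adjusted p in the repeat is therefore no independent support.

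The libraries also differed in composition. Deviations were taken from each gene's mean over these 12 libraries. The mean slopes at night and by day are therefore opposite by construction, and only their difference is a result. The slope of a library's deviation on GC content was -0.129 ± 0.137 log2 per 10 GC points at night and 0.129 ± 0.0885 by day (SD, n = 6 each; exact permutation test, two-sided, p = 0.00649, adjusted over 4 measures 0.013). For transcript length the slope was -0.0185 ± 0.011 log2 per doubling at night and 0.0185 ± 0.0215 by day (exact permutation test, p = 0.00433, adjusted 0.013). The smallest p such a design allows is 0.00216. The abundance of Mir6236, a precursor that overlaps ribosomal RNA, was 9.45 ± 1.13 log2 at night and 10.9 ± 1.55 by day (SD, n = 6 each; exact permutation test, p = 0.0952, adjusted 0.127). Its part, and that of GC content and length, in single results was not tested beyond a fit with both slopes removed, which is given for the named genes whose call it ends.

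**Figure D1:**
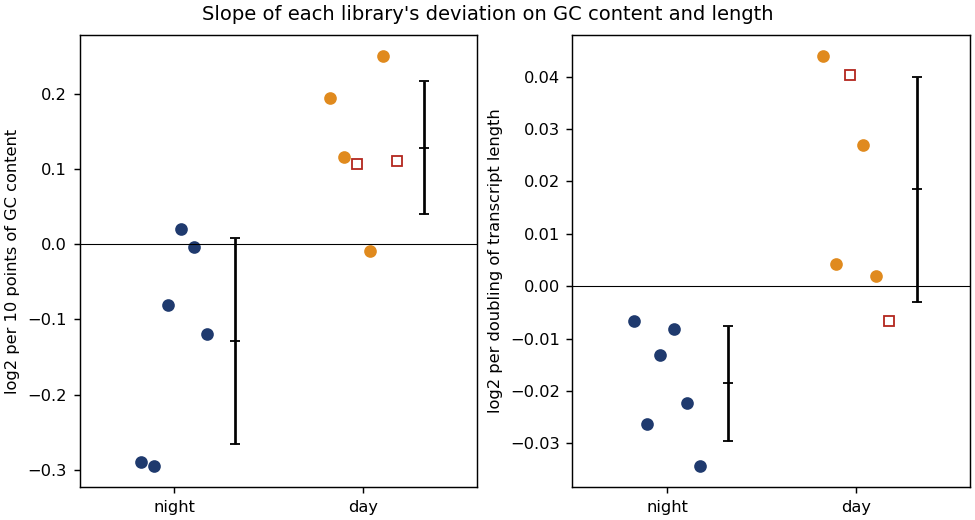
Slope of each library's deviation on GC content (left, log2 per 10 points) and on transcript length (right, log2 per doubling), night left of day, with mean and SD of 6 libraries beside the points and open squares for ZT6 and ZT10 replicate 3. GC slopes average -0.129 at night and 0.129 by day, opposite by construction since deviations are from the mean of these 12 libraries. Of the 6 day libraries 5 lie above every night library in GC slope.

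The strain label was checked with 30 genes whose 36 wild-type B6 (C57BL/6J) and 36 wild-type 129 libraries lie at least 1 log2 apart, a check added after the data were seen. For 21 of these genes all 18 Errg-Cre libraries, ZT2 and ZT14 included, lay nearer to the 129 median. For 5 genes the Errg-Cre libraries split, and for 4 a single library lay nearer to B6. Zfp982 on chromosome 4 lay nearer to B6 in 9 of 18 libraries, 2 of 6 at night and 3 of 6 by day. Ifi202b on chromosome 1 did so in 11 of 18, 3 of 6 in each phase, and Pttg1 on chromosome 11 in 7 of 18, 3 of 6 at night and 1 of 6 by day. The remaining 2 were 2610507I01Rik with 8 and Sugct with 4 of 18. These levels are set across tables that were normalised separately.

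Across all genes, 1569 of 11621 (13.5%) were called, 748 (6.44%) higher and 821 (7.06%) lower at night. The median absolute log2 difference of the called genes was 0.46, and 99 changed at least 2-fold, 43 up and 56 down. Night and day libraries did not overlap at all for 576 genes (4.96%). The median difference over all genes was 0.02 log2. With the GC and length slopes removed 598 genes (5.17%) were called, among them 490 of the 1569. Leaving out 1 library at a time gave between 739 and 1999 calls. The count was 739 without ZT6 replicate 1, 756 without ZT18 replicate 2, 788 without ZT10 replicate 2, 904 without ZT18 replicate 1 and 915 without ZT6 replicate 2, and 636 genes passed in all 12 such fits.

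**Figure D2:**
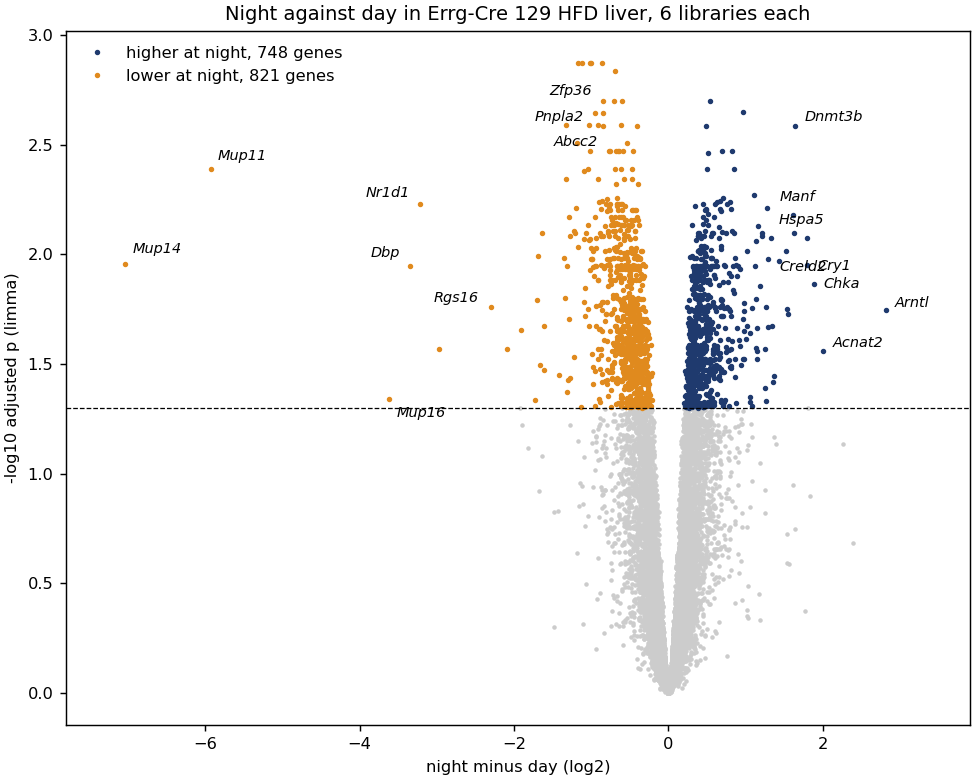
Log2 difference of night minus day (horizontal) against -log10 of the adjusted p (vertical) for every gene tested, with the threshold as a dashed line. Blue points are the 748 genes higher at night and orange points the 821 lower, with Mup14 and Mup11 farthest to the left and Arntl farthest to the right among the labelled genes.

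Of 23 clock genes tested, 12 were called, 4 higher and 8 lower at night, beside 13.5% of all genes. The activator Arntl had 220 to 336 at night (median 292), against 13.6 to 260 by day (median 19.5) (log2 difference 2.81, SE 0.67, adjusted p 0.018). Of the day libraries ZT6 replicate 3 lay inside the night range and ZT10 replicate 3 just under it, and without them the difference was 4.06. The partner Clock had 863 to 1193 at night (median 1017), against 369 to 997 by day (median 496) (log2 difference 0.83, SE 0.21, adjusted p 0.0248). Npas2, a CLOCK paralogue, had 0 to 40.2 at night (median 10.9), against 0 to 33.7 by day (median 2.48), too scattered to pass (log2 difference 1.54, SE 0.90, adjusted p 0.256).

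Among 8 repressors of the loop 1 was higher (12.5%, beside 6.44% of all genes) and 4 were lower (50%, beside 7.06%). Cry1 had 264 to 471 at night (median 394), against 51.6 to 366 by day (median 94.7) (log2 difference 1.79, SE 0.37, adjusted p 0.0112). All night libraries except that of ZT22 replicate 3 at 264 and ZT18 replicate 1 at 286 exceeded the highest day library, ZT10 replicate 3. Cry2 had 149 to 234 at night (median 189), against 207 to 299 by day (median 262) (log2 difference -0.46, SE 0.11, adjusted p 0.0188). Ciart, which encodes the repressor CHRONO, had 1.18 to 15.4 at night (median 5.05), against 1.59 to 110 by day (median 84.2) (log2 difference -2.97, SE 0.79, adjusted p 0.0271), with ZT6 replicate 3 as the only day library inside the night range. Per1 had 16.9 to 56.8 at night (median 27.6), against 19.5 to 174 by day (median 113) (log2 difference -1.66, SE 0.46, adjusted p 0.0319), and Bhlhe41 (DEC2) had 2.02 to 18.2 at night (median 5.41), against 5.76 to 45.5 by day (median 28.4) (log2 difference -1.73, SE 0.53, adjusted p 0.0462). Per3 did not pass with all 12 libraries (log2 difference -1.81, SE 0.66, adjusted p 0.0765) and differed by -2.73 in the repeat. Per2 had 103 to 272 at night (median 142), against 72.8 to 346 by day (median 237) (log2 difference -0.39, SE 0.34, adjusted p 0.455), and Bhlhe40 (DEC1) also missed the threshold (log2 difference -0.52, SE 0.25, adjusted p 0.171).

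Of 4 receptors of the second loop 2 were lower at night (50%, beside 7.06% of all genes). Nr1d1 (REV-ERB alpha), a repressor of Arntl, had 7.88 to 19.8 at night (median 11), against 16.2 to 323 by day (median 161) (log2 difference -3.22, SE 0.54, adjusted p 0.00591), and only ZT10 replicate 3 reached into the night range. Nr1d2 (REV-ERB beta) had 146 to 540 at night (median 252), against 380 to 1364 by day (median 977) (log2 difference -1.64, SE 0.31, adjusted p 0.00799). Rora (ROR alpha), an activator of Arntl, did not pass (log2 difference 0.12, SE 0.10, adjusted p 0.436).

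Of 8 output factors 1 was higher (12.5%, beside 6.44% of all genes) and 2 were lower (25%, beside 7.06%). Dbp, a D-box activator, had 6.26 to 32.8 at night (median 19.3), against 28.2 to 531 by day (median 401) (log2 difference -3.35, SE 0.71, adjusted p 0.0113). No night library exceeded 32.8, and 4 of the 6 day libraries had 395 or more. Nfil3, the repressor that reads the same element, ran the other way with 274 to 394 at night (median 367), against 91 to 313 by day (median 175) (log2 difference 0.97, SE 0.23, adjusted p 0.0166). Klf10, a zinc finger factor, was the clock gene whose groups did not overlap, with 112 to 165 at night (median 126), against 165 to 321 by day (median 218) (log2 difference -0.69, SE 0.15, adjusted p 0.0131). Tef (log2 difference -0.97, SE 0.33, adjusted p 0.064) and Hlf (log2 difference -0.34, SE 0.12, adjusted p 0.071), paralogues of Dbp, missed the threshold with 12 libraries and differed by -1.48 and -0.42 in the repeat. Usp2, Noct and Klf9 did not pass with 12 libraries, at -1.49, -1.16 and -0.10 log2. Leaving out 1 library ended the call of Clock (highest adjusted p 0.0586, without ZT18 replicate 2), Per1 (highest adjusted p 0.074, without ZT10 replicate 2), Ciart (highest adjusted p 0.0635, without ZT10 replicate 2) and Bhlhe41 (highest adjusted p 0.101, without ZT6 replicate 1). After the correction for GC content and length Clock (0.0846), Per1 (0.0954), Bhlhe41 (0.0943) and Cry2 (0.145) had adjusted p above the threshold.

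**Figure D3:**
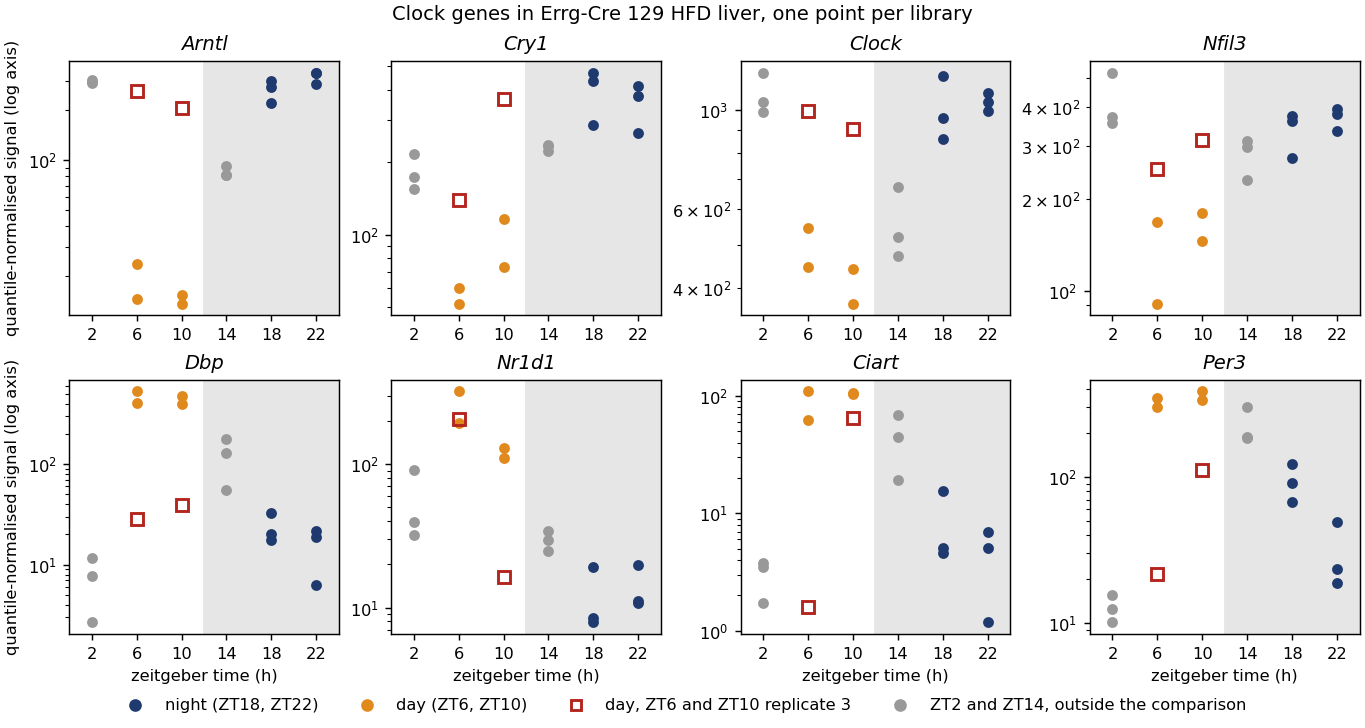
Signal of 8 clock genes in each Errg-Cre library (vertical, log axis) against zeitgeber time in hours (horizontal), with night libraries in blue, day libraries in orange, and ZT2 and ZT14 in grey. The open squares, ZT6 and ZT10 replicate 3, lie near the night libraries for Arntl, at 260 and 206, and far under the other day libraries for Dbp.

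Among the 39 pathway lists, the endoplasmic reticulum chaperones held the most calls in 1 direction. Of the 18 genes of the unfolded protein response list, the genes by which cells expand their folding capacity, 11 were higher at night and 0 lower, beside 6.44% of all genes higher. The list's median was 0.53 log2 against 0.02 over all genes, and 17 of 18 members had a positive difference. With the GC and length slopes removed 9 remained called, and in the repeat 12 were.

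Hspa5, which encodes BiP, the main chaperone of the compartment, had 5923 to 18982 at night (median 12038), against 3575 to 5581 by day (median 4956) (log2 difference 1.21, SE 0.23, adjusted p 0.00798). Every night library exceeded every day library, and the ZT18 libraries reached 18982, 11800 and 13770. Manf, a secreted stress-induced factor, also separated fully, with 520 to 1330 at night (median 922), against 246 to 504 by day (median 371) (log2 difference 1.27, SE 0.22, adjusted p 0.00614). So did Creld2, a disulphide isomerase-like protein, with 242 to 934 at night (median 374), against 75.6 to 214 by day (median 137) (log2 difference 1.53, SE 0.31, adjusted p 0.0097). Sdf2l1, a partner of BiP, had 135 to 321 at night (median 230), against 46.6 to 237 by day (median 84) (log2 difference 1.35, SE 0.34, adjusted p 0.0213), where ZT6 replicate 3 was the day library inside the night range.

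Smaller rises were seen for the folding enzymes and co-chaperones Pdia4 (0.79, SE 0.19, adjusted p 0.0177), Dnajb11 (0.72, SE 0.15, adjusted p 0.0112), Hsp90b1 (0.71, SE 0.20, adjusted p 0.0344), Hyou1 (0.71, SE 0.22, adjusted p 0.0487) and Dnajc3 (0.47, SE 0.13, adjusted p 0.0335). Edem1, which routes misfolded proteins to degradation, rose by 0.35 log2 (SE 0.09, adjusted p 0.0225). Xbp1, the transcription factor of the pathway, had 1410 to 2735 at night (median 1665), against 979 to 1559 by day (median 1290) (log2 difference 0.49, SE 0.15, adjusted p 0.0435). The members that missed the threshold were Pdia3 (0.51, adjusted p 0.0606), Calr (0.47, adjusted p 0.0962), Canx (0.24, adjusted p 0.132), Dnajb9 (0.54, adjusted p 0.254), Syvn1 (0.37, adjusted p 0.314), Pdia6 (0.27, adjusted p 0.318) and Herpud1 (-0.26, adjusted p 0.554). In wild type 11 of 18 were likewise called higher, 9 of them the same genes. Without 1 of the libraries the call ended for Hsp90b1 (highest adjusted p 0.0795, without ZT10 replicate 2), Hyou1 (highest adjusted p 0.104, without ZT18 replicate 1), Dnajc3 (highest adjusted p 0.0775, without ZT10 replicate 2), Edem1 (highest adjusted p 0.0553, without ZT18 replicate 2) and Xbp1 (highest adjusted p 0.0723, without ZT18 replicate 3). Once GC and length slopes were removed Hsp90b1 (0.102) and Dnajc3 (0.122) had adjusted p above the threshold.

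The cytosolic and mitochondrial heat shock chaperones also held calls in 1 direction. Of 16 tested 6 were higher and 0 lower, 37.5% higher beside 6.44% of all genes, with a list median of 0.39 log2, and all 16 had a positive difference. Hsp90aa1, the inducible HSP90, had 1582 to 3525 at night (median 2201), against 921 to 1846 by day (median 1032) (log2 difference 1.02, SE 0.20, adjusted p 0.0097). Hspa4l, an exchange factor for HSP70, had 234 to 339 at night (median 280), against 130 to 223 by day (median 163) (log2 difference 0.76, SE 0.13, adjusted p 0.0059) with no overlap between the groups. The other calls were Chordc1 (0.75, SE 0.20, adjusted p 0.028), Dnajb1 (0.53, SE 0.15, adjusted p 0.0313), Stip1 (0.48, SE 0.10, adjusted p 0.0119) and Hspe1 (0.31, SE 0.10, adjusted p 0.0487). Hsph1 (log2 difference 0.76, SE 0.24, adjusted p 0.0505) and Hspa8 (log2 difference 0.59, SE 0.20, adjusted p 0.0656) missed the threshold. Hspa1a stayed under the filter and Hspa1b, a near-identical copy that shares its reads, did not pass (log2 difference 0.94, SE 0.54, adjusted p 0.249). The call ended on leaving out 1 library for Chordc1 (highest adjusted p 0.0625, without ZT18 replicate 1), Dnajb1 (highest adjusted p 0.0713, without ZT6 replicate 1) and Hspe1 (highest adjusted p 0.0838, without ZT6 replicate 1). In the fit corrected for composition Chordc1 (0.254) and Hspe1 (0.108) had adjusted p above the threshold. Cirbp, a cold-inducible RNA-binding protein, was lower, with 39.9 to 86.3 at night (median 62.4), against 66.6 to 118 by day (median 108) (log2 difference -0.67, SE 0.20, adjusted p 0.0386). Its adjusted p was 0.0812 with the GC and length slopes removed and up to 0.0835 on leaving out a library (without ZT10 replicate 2).

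**Figure D4:**
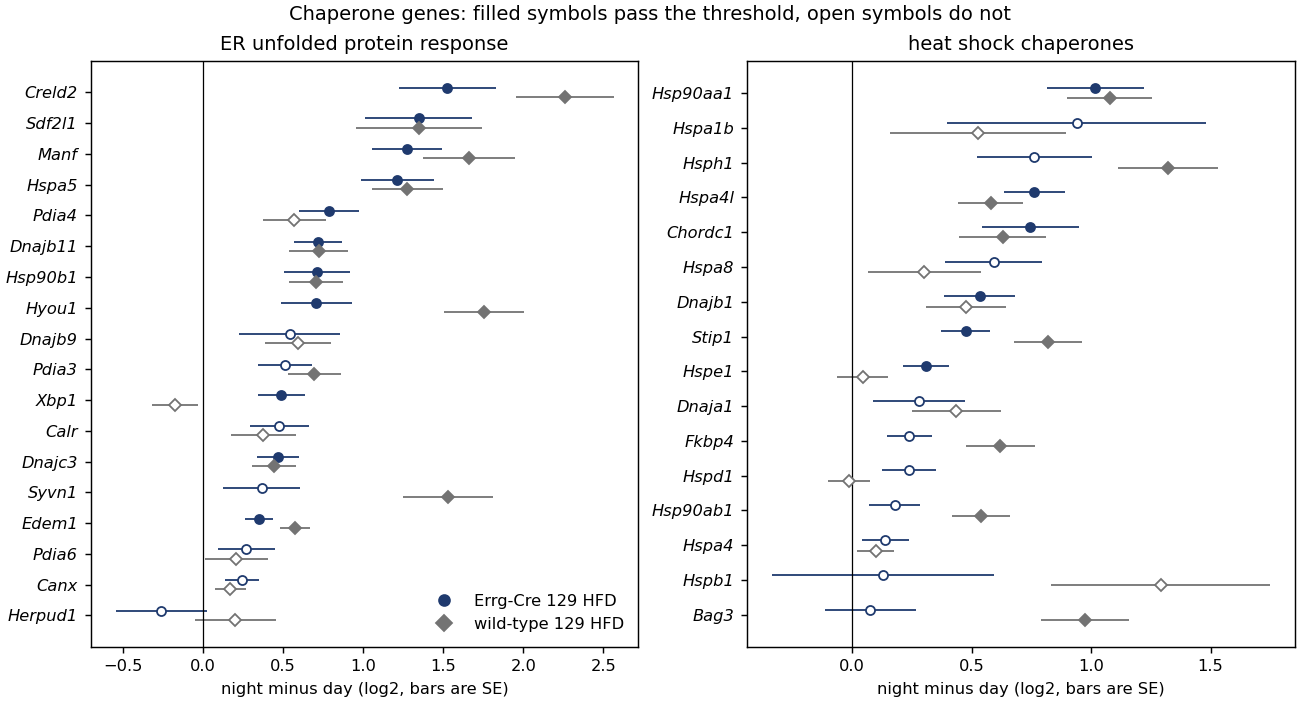
Log2 difference of night minus day with its SE (horizontal) for each tested member of the endoplasmic reticulum list (left) and the heat shock list (right), in Errg-Cre (circles) and wild-type 129 HFD liver (diamonds), with filled symbols past the threshold. In Errg-Cre liver 17 of 18 and 16 of 16 members lie to the right of 0, led by Creld2 at 1.53 and Hsp90aa1 at 1.02.

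Outside these lists, the largest rises at night were in metabolic enzymes and a DNA methyltransferase. Acnat2, an enzyme that joins acyl groups to amino acids, had 594 to 1563 at night (median 1054), against 61.7 to 1161 by day (median 218) (log2 difference 2.01, SE 0.54, adjusted p 0.0276), with ZT10 replicate 3 at 1161 inside the night range. Chka (choline kinase alpha), the first step of phosphatidylcholine synthesis from choline, had 274 to 719 at night (median 536), against 65.9 to 443 by day (median 93.6) (log2 difference 1.88, SE 0.42, adjusted p 0.0137). Ppp1r3c, which targets protein phosphatase 1 to glycogen, had 1448 to 3483 at night (median 2960), against 338 to 1709 by day (median 645) (log2 difference 1.79, SE 0.34, adjusted p 0.0084).

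Dnmt3b, a de novo DNA methyltransferase, had 50.8 to 76 at night (median 59.8), against 12.6 to 37.3 by day (median 16.3) (log2 difference 1.64, SE 0.23, adjusted p 0.0026), and its groups did not overlap. Clpx, the unfoldase of the mitochondrial ClpXP protease, had 2065 to 3350 at night (median 3210), against 653 to 2371 by day (median 822) (log2 difference 1.44, SE 0.30, adjusted p 0.0107). For Clpx and Chka the day libraries that reached or neared the night range were again ZT6 and ZT10 replicate 3.

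The remaining rises were in genes of low signal. Srms, a tyrosine kinase, had 10.7 to 18.3 at night (median 15.7), against 1.93 to 8.46 by day (median 3.99) (log2 difference 1.62, SE 0.29, adjusted p 0.0066), and Fsd1l had 8.09 to 25.2 at night (median 16.1), against 1.79 to 6.08 by day (median 4.83) (log2 difference 1.62, SE 0.31, adjusted p 0.00797). Neither pair of groups overlapped. Ube2u, a ubiquitin-conjugating enzyme, had 35.2 to 85.8 at night (median 69.5), against 9.22 to 53.4 by day (median 18) (log2 difference 1.53, SE 0.36, adjusted p 0.0177). Leaving out 1 library ended the call of Acnat2 (highest adjusted p 0.0668, without ZT6 replicate 1). After the correction for GC content and length Acnat2 (0.0542) and Ube2u (0.0502) had adjusted p above the threshold.

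The sterol exporter pair Abcg5 and Abcg8 was lower at night. Of 7 genes of the LXR and sterol efflux list, 3 were lower and 0 higher, beside 7.06% of all genes lower. Abcg8, which with Abcg5 forms the transporter that moves sterols into bile, had 423 to 770 at night (median 523), against 684 to 1534 by day (median 1172) (log2 difference -1.03, SE 0.20, adjusted p 0.0086). Abcg5 had 416 to 619 at night (median 469), against 577 to 1014 by day (median 901) (log2 difference -0.75, SE 0.16, adjusted p 0.0105). Nr1h2 (LXR beta), a receptor for oxysterols, had 32.8 to 60.1 at night (median 46.6), against 55.9 to 89.1 by day (median 84.1) (log2 difference -0.76, SE 0.17, adjusted p 0.013). ZT10 replicate 3 held the lowest day value of Abcg8, at 684. Abca1, Abcg1, Nr1h3 and Lpcat3 did not pass, with differences of -0.30, -0.26, -0.25 and -0.28.

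In the list of SREBP2 control and LDL uptake, Insig2, which holds SREBP in the endoplasmic reticulum, had 2905 to 5554 at night (median 4687), against 617 to 3926 by day (median 1678) (log2 difference 1.36, SE 0.39, adjusted p 0.0358). Scap, the escort of SREBP, ran the other way with 298 to 519 at night (median 441), against 518 to 661 by day (median 607) (log2 difference -0.48, SE 0.13, adjusted p 0.0279). None of the 9 genes of the mevalonate pathway passed, beside 13.5% of all genes. Idi1 had the smallest p among them (log2 difference 1.19, SE 0.45, adjusted p 0.089). Of the 12 sterol ring enzymes 1 passed (8.33%, beside 13.5% of all genes), Ebp (log2 difference 0.27, SE 0.07, adjusted p 0.0259).

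Fatty acid synthesis had 1 of 16 tested genes called (6.25%, beside 13.5% of all genes), Srebf1, the transcription factor of lipogenesis. It had 327 to 989 at night (median 674), against 786 to 2853 by day (median 1607) (log2 difference -1.29, SE 0.32, adjusted p 0.0197). Fasn (fatty acid synthase) missed the threshold (log2 difference -0.92, SE 0.31, adjusted p 0.0624). It passed in the repeat (-1.10, adjusted p 0.0413), whose left-out pair was picked by Arntl and Dbp. The list's median was -0.30 log2. Dgat2, the last step of triglyceride synthesis, had 2493 to 3100 at night (median 2885), against 2751 to 5923 by day (median 3944) (log2 difference -0.53, SE 0.14, adjusted p 0.0276). Pnpla2, the lipase ATGL that opens triglyceride breakdown, had 75.7 to 118 at night (median 84.6), against 138 to 187 by day (median 148) (log2 difference -0.84, SE 0.12, adjusted p 0.0026), and no night library reached the day range. Cideb, a droplet protein of very low density lipoprotein loading, was also lower (log2 difference -0.32, SE 0.10, adjusted p 0.0488).

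Fatty acid oxidation had 1 gene higher and 4 lower of 26, a share of 19.2% beside 13.5% of all genes. Pdk4, which blocks pyruvate oxidation, had 31 to 89.8 at night (median 54.8), against 18.5 to 53 by day (median 27.6) (log2 difference 0.94, SE 0.26, adjusted p 0.0319). Bdh1, of ketone body synthesis, had 1233 to 1912 at night (median 1560), against 1614 to 2776 by day (median 2461) (log2 difference -0.62, SE 0.13, adjusted p 0.0117). Ppara, the fasting-activated receptor of the pathway, had 1856 to 2656 at night (median 2174), against 2505 to 3780 by day (median 3275) (log2 difference -0.52, SE 0.12, adjusted p 0.0151). Acads, a short-chain acyl-CoA dehydrogenase, fell without overlap, with 498 to 778 at night (median 697), against 832 to 1144 by day (median 930) (log2 difference -0.51, SE 0.12, adjusted p 0.0169). Without 1 of the libraries the call ended for Insig2 (highest adjusted p 0.0786, without ZT18 replicate 2), Scap (highest adjusted p 0.0672, without ZT6 replicate 1), Ebp (highest adjusted p 0.0582, without ZT6 replicate 2), Dgat2 (highest adjusted p 0.0648, without ZT18 replicate 2), Cideb (highest adjusted p 0.108, without ZT6 replicate 1) and Pdk4 (highest adjusted p 0.0693, without ZT6 replicate 1). Once GC and length slopes were removed Nr1h2 (0.0502), Insig2 (0.0918), Scap (0.175), Srebf1 (0.0519), Dgat2 (0.0986), Cideb (0.0856) and Pdk4 (0.0854) had adjusted p above the threshold.

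**Figure D5:**
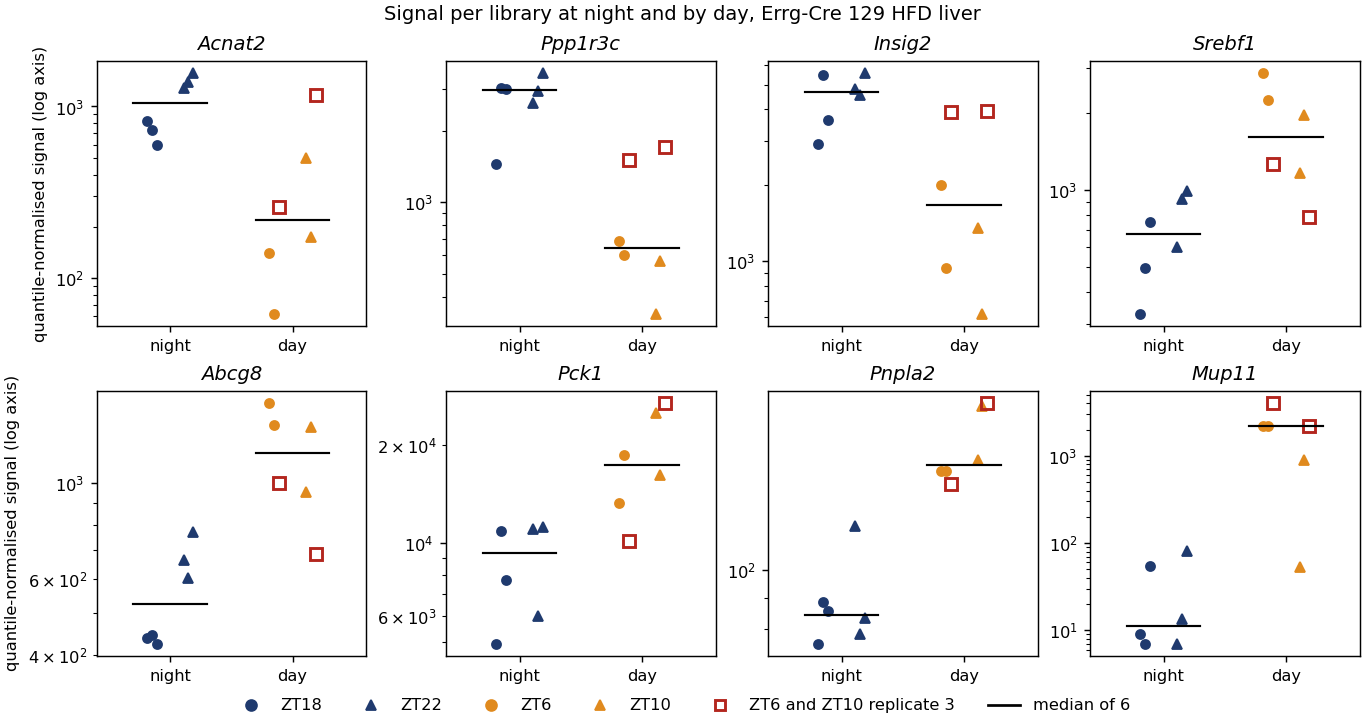
Signal per Errg-Cre library (vertical, log axis) of 8 genes, night left of day, with circles and triangles for the earlier and later time of each phase, open squares for ZT6 and ZT10 replicate 3 and a bar at the median of 6. For Pnpla2 the 6 night libraries, at most 118, lie under all day libraries, and for Mup11 one day library, ZT10 replicate 1, lies among the night libraries at 53.4.

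Of 11 gluconeogenesis genes 2 were lower (18.2%, beside 7.06% of all genes) and 0 higher. Pck1, which commits carbon to glucose, had 4924 to 11217 at night (median 9330), against 10147 to 26879 by day (median 17365) (log2 difference -1.08, SE 0.26, adjusted p 0.0192). Sds (serine dehydratase) had 160 to 354 at night (median 255), against 234 to 807 by day (median 594) (log2 difference -1.09, SE 0.25, adjusted p 0.0165). G6pc, the last step of glucose release, did not pass with 12 libraries (log2 difference 0.65, SE 0.34, adjusted p 0.206). It was higher in the repeat (1.01, adjusted p 0.0445), whose left-out pair was picked by Arntl and Dbp. The differences of the list did not all have the same sign. Of 14 glycolysis and glucose entry genes 21.4% were called, beside 13.5% of all genes. Pgk1 was higher (log2 difference 0.29, SE 0.09, adjusted p 0.0453), and Pfkfb3 (log2 difference -1.31, SE 0.40, adjusted p 0.0425) and the urate and hexose transporter gene Slc2a9 (log2 difference -0.66, SE 0.16, adjusted p 0.02) were lower.

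In the insulin list 3 of 13 genes were lower (23.1%, beside 7.06% of all genes) and 1 higher, Ppp1r3c, described above. Trib3, an inhibitor of AKT, had 9.57 to 18.2 at night (median 12.7), against 19.3 to 44.7 by day (median 24.7) (log2 difference -0.97, SE 0.21, adjusted p 0.0125), with no overlap. Foxo3, a transcription factor that AKT holds back, had 62.2 to 100 at night (median 78.3), against 97.6 to 173 by day (median 145) (log2 difference -0.78, SE 0.15, adjusted p 0.00787), and Akt2 itself had 446 to 543 at night (median 499), against 549 to 660 by day (median 584) (log2 difference -0.28, SE 0.07, adjusted p 0.0246). The call ended on leaving out 1 library for Pgk1 (highest adjusted p 0.0965, without ZT6 replicate 1), Pfkfb3 (highest adjusted p 0.0963, without ZT18 replicate 2) and Akt2 (highest adjusted p 0.0587, without ZT18 replicate 2). In the fit corrected for composition Pgk1 (0.0848), Pfkfb3 (0.106), Foxo3 (0.0774) and Akt2 (0.239) had adjusted p above the threshold.

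Of 19 xenobiotic genes 15.8% were called, a share near the 13.5% of all genes. The 2 higher ones were the sulphotransferase gene Sult1a1 with 2471 to 3344 at night (median 2861), against 868 to 2668 by day (median 1405) (log2 difference 0.96, SE 0.23, adjusted p 0.0197) and Cyp3a13 with 1584 to 2646 at night (median 2011), against 795 to 1673 by day (median 1098) (log2 difference 0.80, SE 0.18, adjusted p 0.0126). Cyp1a2, which oxidises caffeine, was lower without overlap, with 2203 to 3211 at night (median 2828), against 3474 to 5156 by day (median 3804) (log2 difference -0.54, SE 0.11, adjusted p 0.0104). Abcc2, the exporter of bilirubin conjugates, also fell without overlap, with 2595 to 3483 at night (median 3365), against 4104 to 5834 by day (median 5351) (log2 difference -0.68, SE 0.10, adjusted p 0.00339). Akr1d1, an enzyme of bile acid synthesis, was the 1 of 12 bile acid genes called (log2 difference 0.52, SE 0.13, adjusted p 0.02), a share of 8.33% beside 13.5% of all genes.

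Of 6 tested genes of the ERR and PGC-1 list 2 were lower (33.3%, beside 7.06% of all genes). Ppargc1b (PGC-1 beta), a coactivator of ERR receptors, had 56.1 to 71.1 at night (median 68), against 64.9 to 168 by day (median 140) (log2 difference -0.94, SE 0.18, adjusted p 0.00936), and only ZT10 replicate 3 at 64.9 came within the night range. Esrra (ERR alpha) had 46.7 to 92.4 at night (median 62.3), against 85.8 to 135 by day (median 92.7) (log2 difference -0.67, SE 0.16, adjusted p 0.0194). Esrrg itself had 8.23 to 31.3 at night (median 18.9), against 14.3 to 62 by day (median 33.1) and did not pass (log2 difference -0.78, SE 0.39, adjusted p 0.185). With the GFP control libraries not used here, its level is no check of the genotype.

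Of 14 NAD genes 21.4% were called, beside 13.5% of all genes. Nmnat3 (log2 difference -0.58, SE 0.17, adjusted p 0.0352) and Qprt (log2 difference -0.49, SE 0.11, adjusted p 0.0165), which make NAD, were lower, and Sirt1, a deacetylase that uses it, was higher (log2 difference 0.41, SE 0.12, adjusted p 0.0388). Zfp36, which marks inflammatory mRNAs for decay, had 67.9 to 99.8 at night (median 87.6), against 132 to 181 by day (median 157) (log2 difference -0.85, SE 0.11, adjusted p 0.002), with no overlap. Ier2 was the other of 7 tested immediate early genes called (log2 difference -0.63, SE 0.17, adjusted p 0.0272), 28.6% lower beside 7.06% of all genes. Fos, Fosb, Egr1, Ier3, Myc and Atf3 of that list stayed under the filter. Among secreted proteins Inhba, an activin subunit, had 89.6 to 233 at night (median 142), against 50.7 to 122 by day (median 61.4) (log2 difference 1.01, SE 0.25, adjusted p 0.0212). Ulk1, which starts autophagy, was lower (log2 difference -0.87, SE 0.17, adjusted p 0.00826), and Atg12 higher (log2 difference 0.31, SE 0.08, adjusted p 0.0269). Of 17 acute phase genes 11.8% were called, beside 13.5% of all genes. They were Orm3, one of several near-identical copies, and Crp, both higher (log2 difference 1.15, SE 0.32, adjusted p 0.0301 for Orm3 and log2 difference 0.40, SE 0.09, adjusted p 0.0166 for Crp). Leaving out 1 library ended the call of Akr1d1 (highest adjusted p 0.0501, without ZT6 replicate 1), Nmnat3 (highest adjusted p 0.0801, without ZT18 replicate 2), Sirt1 (highest adjusted p 0.0855, without ZT18 replicate 1), Ier2 (highest adjusted p 0.0662, without ZT6 replicate 1), Inhba (highest adjusted p 0.0504, without ZT6 replicate 1), Atg12 (highest adjusted p 0.0661, without ZT6 replicate 1) and Orm3 (highest adjusted p 0.0674, without ZT10 replicate 2). After the correction for GC content and length Cyp3a13 (0.0514), Akr1d1 (0.174), Ppargc1b (0.0537), Esrra (0.0744), Nmnat3 (0.0725), Sirt1 (0.175), Ier2 (0.188), Atg12 (0.18), Orm3 (0.0733) and Crp (0.335) had adjusted p above the threshold.

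Of 35 cytosolic ribosomal protein genes 3 were lower (8.57%, beside 7.06% of all genes), with a list median of -0.06 log2. Proteasome genes had 3 higher and 3 lower of 31, a share of 19.4% beside 13.5% of all genes. With the GC and length slopes removed 0 ribosomal protein genes and 0 proteasome genes were called, beside 5.17% of all genes. Of 26 respiratory chain genes 1 was higher (3.85%, beside 6.44% of all genes), Ndufb5 (log2 difference 0.31, SE 0.06, adjusted p 0.00734). None of 11 NRF2 target genes and none of 9 growth hormone signalling genes was called, beside 13.5% of all genes. The 39 pathway lists included 33 with 3 or fewer calls. At a share of 13.5% a short list holds few calls, so such counts alone set no list apart.

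The largest falls belonged to the major urinary proteins, lipocalins that hepatocytes secrete and that carry pheromones in urine. Of 16 Mup genes tested 6 were lower (37.5%, beside 7.06% of all genes) and 0 higher. Mup14 (chr4:61300037-61303998 in mm10) had 0.484 to 9.54 at night (median 2.73), against 0.625 to 2474 by day (median 1987) (log2 difference -7.04, SE 1.46, adjusted p 0.011). Mup11 (chr4:60658466-60662395) had 6.95 to 81.3 at night (median 11.2), against 53.4 to 4065 by day (median 2210) (log2 difference -5.93, SE 0.92, adjusted p 0.00407). In both genes 5 of 6 day libraries lay at 445 or more, while ZT10 replicate 1, at 0.625 for Mup14 and 53.4 for Mup11, lay among the night libraries.

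Mup16 (log2 difference -3.61, SE 1.11, adjusted p 0.0457), Mup15 (log2 difference -1.91, SE 0.48, adjusted p 0.0221), Mup20 (log2 difference -1.70, SE 0.39, adjusted p 0.0161) and Mup7 (log2 difference -1.28, SE 0.37, adjusted p 0.0365) were the other calls. Mup20, the male pheromone darcin, had 1718 to 4263 at night (median 2433), against 2398 to 18562 by day (median 8866). Mup3, the most abundant member, did not pass (log2 difference -0.13, SE 0.20, adjusted p 0.708), nor did Mup21 (log2 difference 0.56, SE 0.24, adjusted p 0.133). These genes are near-identical copies on chromosome 4, so reads may be split among them and the value of a single member is uncertain. In the repeat 3 of them were called lower.

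Libraries of 1 time also differed in the Mup genes. At ZT2, replicate 2 had Mup11 at 1345 and replicates 1 and 3 had 9.06 and 44.9. At ZT14, replicates 1 and 2 had 1112 and 436 and replicate 3 had 2.88. In the wild-type table the 18 HFD libraries of 129 held Mup11 at 0.05 to 10.1 (median 5.49) and the 18 of B6 at 2.4 to 7456 (median 1377). Mup20 lay at 1300 to 5936 in wild-type 129 and at 4500 to 24090 in wild-type B6, and 5 of the 6 Errg-Cre day libraries (6546, 8485, 9246, 15596 and 18562) exceeded every wild-type 129 library. For Mup11, 5 of the 6 day libraries had 901 or more and no night library exceeded 81.3. These levels come from tables normalised separately. What sets the high and low Mup libraries was not tested. Within these 12 libraries Mup11 and Mup14 were high by day and low at night, except in ZT10 replicate 1. Time and other sources therefore cannot be told apart there.

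Other large falls were in signalling genes. Rgs16, a brake on G protein signalling, had 14.6 to 94.8 at night (median 65), against 86 to 716 by day (median 299) (log2 difference -2.30, SE 0.54, adjusted p 0.0174), and the ZT10 libraries at 716, 533 and 415 stood above all others. Ntrk2, the receptor TrkB, had 2.95 to 52.2 at night (median 27.3), against 45.3 to 132 by day (median 91.5) (log2 difference -2.09, SE 0.56, adjusted p 0.0271). Gnat1, known as the transducin subunit of rods, had 8.87 to 20.1 at night (median 10.2), against 16.2 to 86.1 by day (median 40.7) (log2 difference -1.69, SE 0.34, adjusted p 0.0102). Without 1 of the libraries the call ended for Mup16 (highest adjusted p 0.0987, without ZT6 replicate 1), Mup15 (highest adjusted p 0.054, without ZT6 replicate 1), Mup7 (highest adjusted p 0.0809, without ZT6 replicate 1) and Ntrk2 (highest adjusted p 0.0642, without ZT6 replicate 1). Once GC and length slopes were removed Mup16 (0.0599) and Ntrk2 (0.0518) had adjusted p above the threshold.

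Hepatocyte markers were abundant in every library. None of the 11 hepatocyte genes tested was called, beside 13.5% of all genes. Their summed signal ran from 915980 to 971532 at night and from 789392 to 1045853 by day. Kupffer cell genes summed to 2855 to 5397 at night and 3130 to 5744 by day, with 0 of 13 called, beside the same 13.5%. Of 12 sinusoidal endothelium genes 1 was called (8.33%, beside 13.5% of all genes), Stab1 (log2 difference -0.46, SE 0.11, adjusted p 0.0181, and adjusted p 0.208 with the GC and length slopes removed), and their sums were 4044 to 4692 at night and 4228 to 4826 by day. Stellate cell genes (0 of 8 called), monocyte genes (0 of 5), cholangiocyte genes (0 of 3), lymphocyte genes (0 of 1) and erythroid genes (0 of 6) gave no calls. Lists this short would hold few calls at a share of 13.5%. All neutrophil and adipocyte genes stayed under the filter, and Ly6g, Lep and Plin1 were listed at 0 in all 12 libraries. Of the acinar list only Cela1 passed the filter and Prss2, Cpb1 and Amy2a5 were at 0. One erythroid value stood apart, Hbb-bt at 219 in ZT22 replicate 1, where the other night libraries had 31.3 to 58.3.

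Without ZT6 and ZT10 replicate 3, 1725 genes (14.8%) were called, 886 (7.62%) higher and 839 (7.22%) lower at night, and 201 changed at least 2-fold, against 99 with all 12. Of the 1569 calls with 12 libraries 1249 (79.6%) were called again, all in the same direction, which make up 72.4% of the calls of the repeat. The libraries of the repeat are all among the 12, so this agreement is largely built in. With the GC and length slopes removed the repeat called 1044 genes (9.03%).

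Several large differences passed the threshold in the repeat and not with all 12 libraries. Elovl3, which elongates very long chain fatty acids, had 1463 to 7224 at night (median 4956), against 175 to 4732 by day (median 593) (log2 difference 2.27, SE 0.81, adjusted p 0.0731, and 3.55, adjusted p 0.00143 in the repeat). The left-out pair held 4732 and 4679, and the other day libraries 915, 250, 271 and 175. Tubb2a, a tubulin gene with a close copy, had 2.73, adjusted p 0.000622 in the repeat and missed the threshold with 12 (log2 difference 1.81, SE 0.57, adjusted p 0.0503). Cdkn1a, the cell cycle inhibitor p21, had 395 in ZT10 replicate 3, above every night library, and 2.83, adjusted p 0.000264 without the pair. The homeobox gene Pitx3 had 2.96, adjusted p 0.00957 in the repeat and missed the threshold with 12 libraries (log2 difference 1.84, SE 0.79, adjusted p 0.127). Thrsp, a lipogenic gene, was lower at night in the repeat (-2.45, adjusted p 0.00164), where the left-out ZT6 replicate 3 had 142 against 2398 to 4838 in the other day libraries. The pair was left out for its Arntl and Dbp, so genes that vary with these gain contrast by the choice. These passes describe the libraries kept and are no independent test.

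Wild-type 129 HFD livers were compared at the same times in their own table, so values stand side by side and the difference between genotypes was not tested. Of 11286 genes tested 1422 (12.6%) were called, 669 (5.93%) higher and 753 (6.67%) lower at night. Of genes tested in both, 231 were called in both, 14.9% of the Errg-Cre calls and 16.3% of the wild-type calls. These shares lie near the 12.6% and 13.5% called among all genes. Of the 231, 178 had the same direction and 53 the opposite one. In the repeat 334 were shared, 19.6% of its calls and 23.6% of the wild-type calls, beside 12.6% and 14.8% called among all genes. Of these 301 had the same direction. The pair left out of the repeat was picked by Arntl and Dbp, so this larger overlap is a description and no independent support.

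Clock, lipid and chaperone genes were among those called in both. Arntl differed by 2.81 in Errg-Cre and 2.97 in wild type, Dbp by -3.35 and -3.53, Nr1d1 by -3.22 and -3.01, and Cry1 by 1.79 and 2.75. Clock list medians in Errg-Cre and wild type were 1.54 and 2.97 for the activators and -0.76 and -1.12 for the receptors. For the repressors they were -1.09 and 0.33, and for the output factors -0.83 and 0.003, so these lists did not run alike. Acnat2, Chka, Ppp1r3c and Dnmt3b also passed in wild type, at 1.85, 1.98, 1.85 and 1.36. Creld2 had 2.26 and Hspa5 1.28 there.

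Other genes called in Errg-Cre liver were not called in wild type. Per1 stood at -1.66 in Errg-Cre and 0.76, adjusted p 0.176, in wild type. Srebf1 had -1.29 in Errg-Cre and 0.15, adjusted p 0.782, in wild type, Pck1 -1.08 and 0.17, adjusted p 0.741, and Pnpla2 -0.84 and -0.07, adjusted p 0.87. Mup11 had -0.96, adjusted p 0.209, in wild type, at a signal of 0.05 to 7.81 at night and 2.56 to 10.1 by day. None of the 16 Mup genes was called there, beside 12.6% of all genes. Of the 53 genes called in opposite directions 40 were lower at night in Errg-Cre and 13 higher. In the Errg-Cre fit with the GC and length correction 11 of them passed, where 107 of the 178 in the same direction did. The wild-type fit was not corrected for GC content and length, so the part of composition in its values is unknown. Chosen after their values were seen, Polr2a, the largest subunit of RNA polymerase II, had -0.56, SE 0.10, adjusted p 0.00695 in Errg-Cre and 0.68, adjusted p 0.0162, in wild type, and Atp6v0c, a proton pump subunit with a near-identical pseudogene copy, -0.97, SE 0.20, adjusted p 0.0097 and 1.48, adjusted p 0.03.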

How the data were processed

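Total RNA of liver was made into TruSeq RNA libraries, per the labels' protocols. The authors deposited a quantile-normalised signal per RefSeq transcript, as the file names and the identical sorted values of all libraries in a table show. The submitters' processing notes name STAR, HOMER and build mm10, and whether counting used strand is not given in the sources used here. The Errg-Cre table held 42361 transcripts with a total signal of 12305608 per library, and the wild-type table a total of 10837743. Totals are equal by construction, so depth and counting error cannot be given. No sample label matched 18 columns of the Errg-Cre data, which were not used, and 91 transcripts without a symbol were left out.

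The transcript with the highest mean stood for each symbol, genes with a mean of at least 10 were tested, and log2(signal + 1) was fitted in limma 3.58.1 (R 4.3.3) with night and day as group means and a variance trend. The alternatives were other pseudocounts, filters, scalings, variance settings and time terms, library weights, a replicate block, a GC and length correction and leaving out each library. The GC and length correction was run for Errg-Cre liver only. In simulated data for the Errg-Cre comparison of 11621 genes, 43.3% of 67 genes changed by 0.5 log2, 92.5% of 67 changed by 1 and 97% of 66 changed by 2 were recovered, with 9 false calls. The simulated noise was normal and independent between genes, without the GC and length slopes of the real libraries. These rates therefore check the fit and do not give the error of the real calls. Library measures were compared by exact permutation tests, two-sided. The genes named are all clock genes and Esrrg, the 12 largest rises and falls, up to 4 called members of each list or the 2 of smallest p where none passed, and up to 8 rises and falls more from the repeat. Other list members are given to account for a list. Values of a few genes that this rule takes in are not reported here. The comparison, the lists and this rule were chosen with earlier results of these data known. The fits of the repeat other than its main one, and the strain check, were added after seeing the data.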

Additional observations from a re-analysis of the deposited data

Results flagged for a closer look

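Of 248 groups of 6 libraries tested, 1 night and 1 day group for each gene reported, 17 held a library whose gap to its nearest neighbour took up most of the range (Dixon's test at the 95% level), where chance gives about 1 in 20. The values are signal, and 9 of the 17 came from ZT6 replicate 3 or ZT10 replicate 3. That pair was picked for its Arntl and Dbp, so its flags among clock genes follow in part from the choice. ZT6 replicate 3 was low by day for Per2 at 72.8, Ciart at 1.59, Usp2 at 11.9 and Thrsp at 142, and high for Trib3 at 44.7. ZT10 replicate 3 was low by day for Nr1d1 at 16.2, Nmnat3 at 32.3, Ghr (growth hormone receptor) at 4422 and Ppargc1b at 64.9. ZT10 replicate 1 was low by day for Mup14 at 0.625 and Mup11 at 53.4. ZT22 replicate 1 was high at night for Pnpla2 at 118, Orm3 at 259, Rpl19 at 1287 and Hbb-bt at 219. The other night values were low ones, Ppp1r3c in ZT18 replicate 1 at 1448 and Ppargc1b in ZT22 replicate 2 at 56.1.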

How the results depend on the processing

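The 1569 calls of Errg-Cre liver became 598 with the GC and length correction, 871 with no filter on low values and 2364 with library weights. Other pseudocounts, a stricter filter, median centring, other variance settings and 4 time means kept the count within 1.5 times. Leaving out 1 library gave 739 to 1999 calls, in the repeat 842 to 2262 around 1725, and in wild type 937 (without ZT18 replicate 1) to 1499 around 1422. The repeat had 1044 calls with the GC and length correction, and wild type 749 with no filter. The replicate numbers did not pair the libraries (mean correlation of same-numbered libraries 0.067, -0.021 and 0.016). A replicate block gave 1282 calls, 458 together with the GC and length correction, 974 in the repeat and 1405 in wild type. With the GC and length correction, with or without the replicate block, 4 named genes changed sign without passing: Keap1 to 0.0655 (0.0722 in the repeat), Otc to -0.0149 (-0.0274), Psmc6 to -0.047 (-0.0065) and Spp1 to -0.0272 (-0.0937). Otc and Psmc6 were called in the main limma fit, at 0.277 (adjusted p 0.0416) and 0.317 (adjusted p 0.0206). Of the 1569 calls 16 turned sign with the GC and length correction. Single libraries turned the sign of uncalled genes. Over the libraries left out, Ptprc ran between -0.2374 and 0.1549 (without ZT10 replicate 1) and Klf9 in the repeat between -0.1778 and 0.0185 (without ZT10 replicate 1). In wild type, Usp2 ran between -0.1953 (without ZT6 replicate 2; -0.0698 without ZT6 replicate 3) and 0.8337, and Noct between -0.2015 (without ZT6 replicate 2; -0.0491 without ZT18 replicate 3) and 0.5428. The cause of these changes was not tested. Sequencing depth is unknown, so no counting error can be given for low signals.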
